A study of Mus musculus with 2 samples.

Results

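Spliced transcript models that run antisense to known genes were examined in long-read RNA sequencing of mouse hippocampus. A model was a member when the deposited table gave it the class antisense and at least 2 exons, and models of the libraries were matched by their intron chain, the ordered start and end positions of all introns on 1 strand. Replicate 1 held 880 such models with 1352 reads and replicate 2 held 807 models with 1304 reads. They made 1574 intron chains with 2656 reads, among 132344 intron chains of all spliced models with 1244111 reads. Members held 0.165% of the 821324 mouse reads of replicate 1 and 0.175% of the 743862 mouse reads of replicate 2, a mean of 0.170% ± 0.00756 (SD, n = 2). Most antisense reads lay elsewhere, since the single-exon antisense models had 65991 and 62475 reads.

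Both libraries belonged to 1 group, hippocampus (a layer of it, per the labels) from male B6CASTF1/J mice, F1 offspring of a cross of C57BL/6J with CAST/EiJ, aged 14 days, with no treatment named. Each library was made from the RNA of 3 pooled males and started from 2 µg. The labels of the samples name different animals for each replicate, but the description of the experiment gives the animals of replicate 1 in each, so differences between the libraries may be only technical. Summed markers of hippocampal neurons stood at 2190 and 2234 CPM (reads per 1000000 mouse reads) in replicates 1 and 2, and those of astrocytes at 3612 and 3384. Oligodendrocyte markers stood at 4576 and 2186 CPM and choroid plexus markers at 196 and 90.1, the widest gaps among these lists. Fewer cells of a type and less RNA per cell cannot be told apart here. Thalamus markers summed to 122 and 79.3 CPM, and their part in the results below was not tested.

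Antisense transcripts are copied from the DNA strand opposite to that of a gene, and many are long non-coding RNAs that start at a shared, divergent promoter or inside the gene. They can pair with the sense RNA, alter its splicing or its transcription, and at some loci, such as imprinted ones, they silence their partner. Introns removed by the spliceosome nearly always begin with GT and end with AG on the transcribed strand, so the same interval read from the other strand begins with CT and ends with AC. The strand of an intron can therefore be read from its end bases. That reading is separate from the strand of the model only if the model's strand was not set from those bases. How the strand of each read was set was not stated in the labels or files.

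The introns fell into a mirrored and an unmirrored kind, and the sequences at their ends are shown first. A mirrored intron had exactly the start and end of an intron that GENCODE M21 annotates on the opposite strand, that is, in the sense gene. The bases below run 5′ to 3′ on the strand of the antisense model, 10 of the exon and 10 of the intron at its first boundary, then 10 of the intron and 10 of the exon at its second, and capitals mark the outermost 2 bases of the intron. They were read from GENCODE M21 transcript sequences and RefSeq promoter windows (GRCm38, the same assembly as mm10). The mirrored introns lie opposite Nr2f2 (chr7:70354922-70354941 and chr7:70357753-70357772, + strand) and Mgat4a (chr1:37498731-37498750 and chr1:37536029-37536048, + strand).
Nr2f2 first boundary: ccacaggcatCTggaagaaa
Nr2f2 second boundary: tccttcctACctgaggtgaa
Mgat4a first boundary: attagtttttCTagaggaaa
Mgat4a second boundary: tcctccttACctttcccatt
The unmirrored introns lie opposite Calr3 (chr8:72435246-72435265 and chr8:72438471-72438490, + strand), Grin2a (chr16:9994471-9994490 and chr16:9994833-9994852, + strand) and Aptx (chr4:40685493-40685512 and chr4:40685934-40685953, + strand).
Calr3 first boundary: aacttagaagGTaatattgg
Calr3 second boundary: tctggtccAGgtcagacgga
Grin2a first boundary: gaagccccagGTtggccacc
Grin2a second boundary: ctccacatAGttctcagcag
Aptx first boundary: accaccccagGCtgccctca
Aptx second boundary: accgccccAGgctgccctca

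Of 2199 different introns in the members, 645 (29.3%, Wilson 95% interval 27.5% to 31.3%) were mirrored. A further 26 shared 1 boundary with the opposite strand's annotation, 3 shared both boundaries without being an annotated intron, and 1525 shared none. No member used a splice site annotated on its own strand, which largely follows from the class antisense. None of the 773 introns of spliced intergenic models mirrored an annotated intron, but that class lies outside known genes, so this is no background for the mirrored share. Over all introns weighted by reads, the mirrored share was 49.1%, and 43.9% without the Slitrk5 chain described below.

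Both end bases could be read for 48 mirrored introns and 87 unmirrored ones, the subset that lies in the sequences given. All 48 mirrored introns had the bases of a splice site on the opposite strand, 47 of them CT and AC and 1 GT and AT (100%, interval 92.6% to 100%). Of the 87 unmirrored introns, 79 (90.8%, 82.9% to 95.3%) had splice-site bases on the strand of the model, 74 of them GT and AG and 5 GC and AG. The other 8 had them on the opposite strand. By the same reading, annotated introns had splice-site bases on their own strand in 99.8% of 14823, and introns with a new splice site in sense genes in 97.4% of 8164. For the mirrored introns the result was nearly fixed by their definition, since they are annotated introns of the sense gene read from the other strand. Of the unmirrored introns that could be read, most carried splice-site bases of the antisense strand. None of these 87, and none of the 8164 with a new splice site, lacked splice-site bases on both strands, against 28 of the annotated introns. Whether new introns had been selected, or their strand set, by these bases was not tested. The 90.8% is therefore not shown to be independent of the strand given to the model.

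A direct repeat across both boundaries, as opposite Aptx above, leaves the exact position of an intron open to more than 1 placement. At least 8 identical bases in a row across the aligned boundaries were found in 5 of 80 unmirrored introns whose windows could be read (6.25%, interval 2.70% to 13.8%). None of 45 mirrored introns (up to 7.87%) and none of 51 annotated introns (up to 7.005%) had one. The intervals overlap, so a difference in repeats was not detectable in this number of introns.

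**Figure D1:**
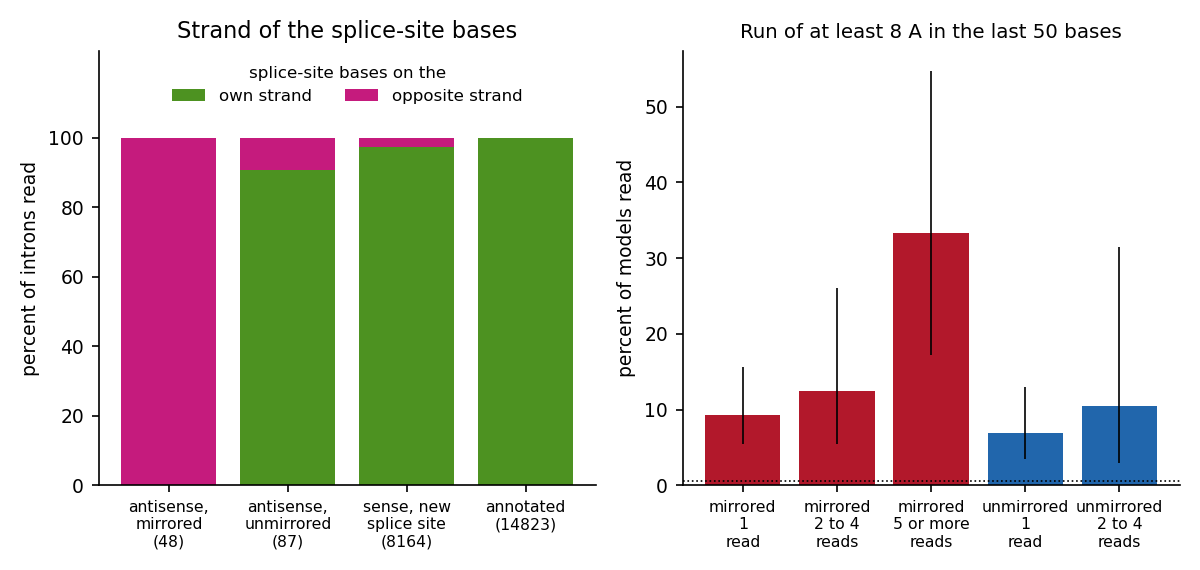
The left panel plots the percent of introns whose end bases are those of a splice site on the strand of the model (green) or on the opposite strand (magenta), with the number of introns read in parentheses. The right panel plots the percent of models with a run of at least 8 A in their last 50 bases by class and number of reads, with Wilson 95% intervals and, as a dotted line, the 0.608% of annotated transcript starts read on the opposite strand. All 48 mirrored introns read are on the opposite strand, which their definition nearly fixes, and A runs reach 33.3% of mirrored models with at least 5 reads.

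Counted by chain, 473 chains had mirrored introns throughout, 1056 had none and 45 had both kinds. The mirrored chains held 645 reads in replicate 1 and 656 in replicate 2, or 785 and 882 CPM (834 ± 68.3, SD, n = 2). The unmirrored chains held 681 and 619 reads, or 829 and 832 CPM (831 ± 2.12). The mixed chains held 26 and 29 reads. Mirrored and unmirrored chains thus held nearly equal reads, 1301 and 1300, though unmirrored chains were the more numerous. This equality rests on the Slitrk5 chain described below, which held 345 of the 1301 mirrored reads. Without it the mirrored chains held fewer reads than the unmirrored. A single intron was present in 1168 of the 1574 chains (74.2%), and 256 had 2 introns. The most introns, 27 and 21, were in 2 unmirrored chains of 1 read each opposite AC149090.1 on an unplaced scaffold, followed by 10 opposite Pde4dip, which encodes a scaffold protein of the centrosome and Golgi.

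The reads were spread thinly. A single read supported 1326 chains (84.2%), and the 44 chains with at least 5 reads included 30 mirrored and 14 unmirrored ones. Chains of 12 sense genes held 643 reads, 24.2% of the total. One chain opposite Slitrk5 alone held 13.0%.

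Reads of the Slitrk5 chain numbered 157 and 188 in replicates 1 and 2, or 191 and 253 CPM (222 ± 43.5, SD, n = 2). Slitrk5 encodes a transmembrane protein of neuronal synapses and lies on the + strand (chr14:111675097-111683141). The antisense model lies at chr14:111675097-111679920 on the − strand and has 1 intron (111675724 to 111678937), which is the intron of the sense gene's 5′ untranslated region. The sense gene itself had 34 and 35 reads, and only 7 and 6 reads crossed this intron in the sense direction. Antisense reads thus outnumbered sense reads across the intron in both libraries.

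Prpf38b, which encodes a protein of the splicing machinery, stood opposite the next most abundant chain, with 32 and 43 reads (48.4 ± 13.3 CPM, SD, n = 2; chr3:108903147-108906983, + strand). The sense gene (chr3:108902805-108911727, − strand) had 4 and 5 reads, of which 4 and 4 crossed the mirrored intron. The chain opposite Crebbp, a histone acetyltransferase that serves as a transcriptional coactivator, had 27 and 18 reads (28.5 ± 6.13 CPM). It lies at chr16:4128444-4213997 on the + strand and mirrored the first 5 introns of the gene in their order, of 33005, 24390, 15871, 1265 and 8679 bases. No sense read crossed any of these 5 introns in either library, and Crebbp had 7 and 13 sense reads in all. It was the chain with the most introns among those seen in both libraries.

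Opposite Nr2f2, a nuclear receptor of the forebrain, 11 and 20 reads mirrored the first and second intron of the gene (20.1 ± 9.54 CPM; chr7:70353992-70360593, + strand). Sense reads across those introns numbered 11 and 9 for the first and 24 and 31 for the second. Ubl3, a ubiquitin-like protein anchored at membranes, differed from the others. Its chain had 6 and 20 reads (17.1 ± 13.8 CPM), against 298 and 234 sense reads across the same intron of 39950 bases. Mbnl1, an RNA-binding regulator of splicing, had 15 and 10 antisense reads (15.9 ± 3.41 CPM) and 3 and 4 sense reads across an intron of 65789 bases.

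Lower in the order, the chain opposite Lyrm4, which helps to assemble iron-sulphur clusters, had 11 and 7 reads. That opposite Gtf2a1, a subunit of the general transcription factor TFIIA, had 6 and 8 reads over 2 introns that no sense read crossed. Carmil1, a regulator of actin capping, had 9 and 3 antisense reads, and 0 and 3 sense reads with the same intron. In Chtop, which takes part in mRNA export, 8 and 2 antisense reads faced 86 and 83 sense reads. The antisense reads were the larger number for Gtf2a1 in both libraries and for Carmil1 in replicate 1 only, with equal numbers in replicate 2, and the smaller for Chtop. The chains opposite Slitrk5 and Prpf38b stood above the next in both libraries. From Crebbp on, the CPM ranges of neighbours in this order overlapped, except narrowly for Mbnl1 (18.26 and 13.44 CPM) and Lyrm4 (13.39 and 9.41 CPM).

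**Figure D2:**
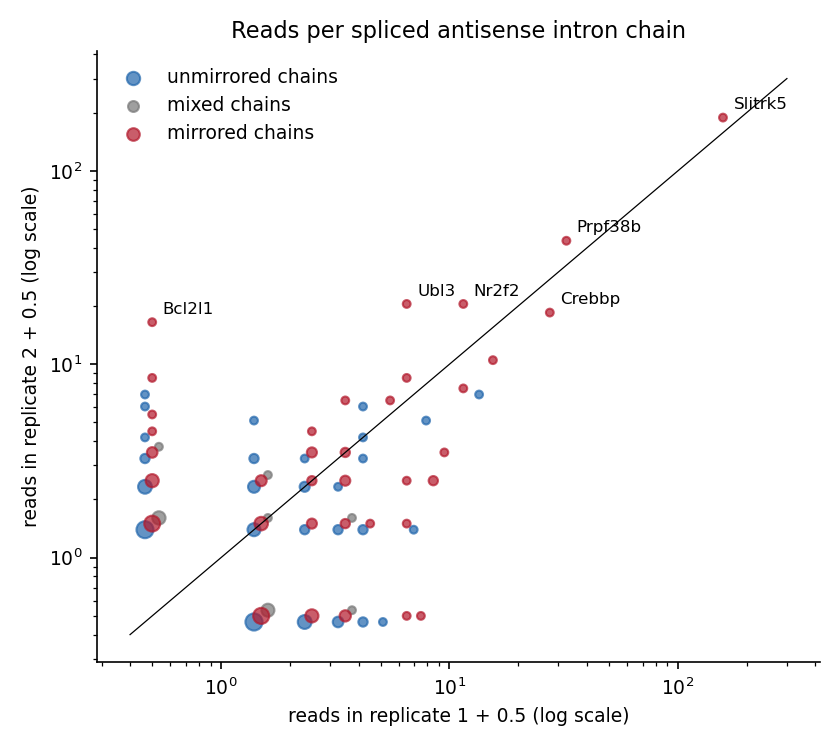
Reads of each intron chain in replicate 1 (x axis) against replicate 2 (y axis), with 0.5 added and both axes on a log scale. Point area grows with the number of chains at the same pair of values, classes are shifted slightly so that they do not hide each other, and the line marks equal reads. Slitrk5 lies far above all other chains at 157 and 188 reads, and most chains sit at 1 read in 1 library.

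The same intron chain could carry another class in the other library. The chain opposite Bcl2l1, which encodes the anti-apoptotic protein Bcl-xL, had 16 reads of the class antisense in replicate 2 and 15 reads as an incomplete splice match of an antisense model in replicate 1. Likewise, 10 reads of the genomic class in replicate 1 had the chain that 6 reads of replicate 2 had opposite Slc1a3, an astrocyte glutamate transporter. Opposite Adgrl2, an adhesion receptor of synapses, 7 reads as an incomplete match in replicate 1 shared the chain of 8 antisense reads in replicate 2. In all, 61 chains (3.88%) had reads of another class. An absence in 1 library under the rule was therefore a difference of class for these chains, not of reads.

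Of the 1574 chains, 113 (7.18%, interval 6.01% to 8.56%) were seen as members in both libraries, and 174 (11.1%) when a chain could carry any class in either. The mirrored chains were seen in both in 63 of 473 (13.3%, 10.6% to 16.7%), and the unmirrored in 47 of 1056 (4.45%, 3.36% to 5.87%). Among chains of at least 5 reads, 43 of 44 were seen in both when any class counted (97.7%). Within bins of reads in replicate 1, mirrored chains of 1 read were found again in replicate 2 in 14.0% of 221, unmirrored ones in 5.77% of 520, and sense models with a new splice site in 9.75% of 17226. The intervals of the mirrored and unmirrored shares at 1 read, 10.1% to 19.2% and 4.07% to 8.12%, did not overlap. At 2 to 4 reads the shares were 40.9% and 26.4%, with overlapping intervals. Annotated transcripts of 1 read were found again in 43.0%.

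**Figure D3:**
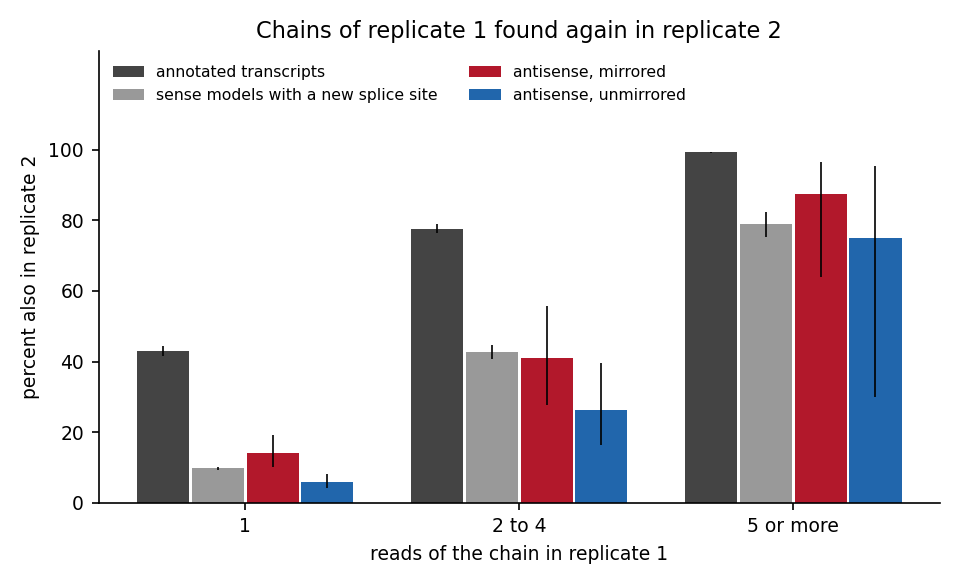
Percent of the chains of replicate 1 that were also found in replicate 2 under the same class (y axis), by the reads of the chain in replicate 1 (x axis), with Wilson 95% intervals. At 1 read, mirrored antisense chains (14.0%) and unmirrored ones (5.77%) both lie far under annotated transcripts (43.0%), and at 5 or more reads the intervals of the antisense classes are wide.

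Reads of any class with the same chain were compared between the libraries for chains of at least 20 reads, by a two-sided Fisher's exact test of a chain's reads against the remaining mouse reads, adjusted by Benjamini-Hochberg over all 8395 spliced chains and annotated single-exon transcripts that reached this number. The threshold was 0.05, and 0.965% of all tested were called. None of the 8 member chains tested was called, against 2 at an unadjusted p under 0.05. The chain opposite Bcl2l1 reached 20 reads only with its 15 reads as an incomplete match. The largest difference was that of Ubl3, which stood at 7.31 and 26.9 CPM, a log2 ratio of replicate 2 over replicate 1 of 1.80 (exact p = 0.00284, adjusted p = 0.147). Slitrk5 had a log2 ratio of 0.40 (exact p = 0.00966, adjusted p = 0.276). Nr2f2 was at 0.98 (adjusted exact p = 0.596), Prpf38b at 0.56 and Crebbp at -0.43. The test measures departure from counting error between these libraries, and only 8 chains could be tested.

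The mirrored introns were set beside the sense reads across the same introns, counted over all models on the sense strand. On the antisense side only reads of the class antisense were counted, so reads of other classes with the same introns are left out. Over all annotated introns, mirrored reads made up 0.0174% of the 5245821 sense reads across introns in replicate 1 and 0.0193% of 4678323 in replicate 2. The share of introns with any mirrored read rose with sense reads, from 0.183% of introns with 1 to 4 sense reads to 0.912% of those with at least 500. The mirrored reads did not keep step with the sense reads, and fell from 0.186% of the reads of the first of these bins to 0.00227% of the last. Of the 645 mirrored introns, 45 had no sense read, and 72 had more antisense than sense reads. Among the 43 with at least 5 antisense reads, 28 had more antisense than sense reads, and the median antisense share was 71.4%. Among the 460 with 1 antisense read the median was 3.28%. These groups were formed by the antisense reads that enter the share, so a higher share in the first is partly built in. Introns of the same chain, such as the 5 of Crebbp, also share their reads and are not separate cases.

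**Figure D4:**
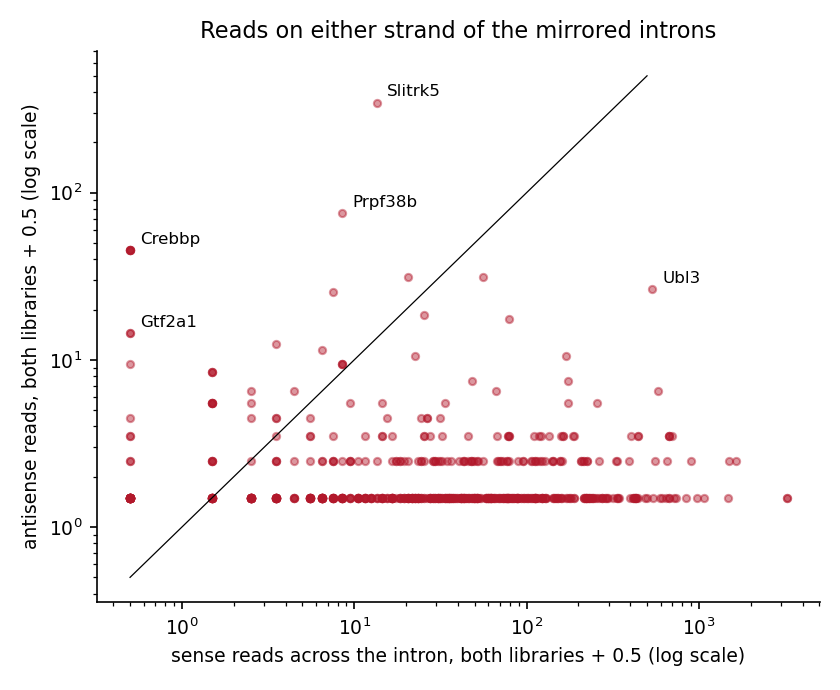
Sense reads across each of the 645 mirrored introns (x axis) against antisense reads (y axis), summed over both libraries with 0.5 added, on log scales. The line marks equal reads. The introns opposite Slitrk5, Prpf38b, Crebbp and Gtf2a1 lie above the line, while Ubl3 and most introns with 1 antisense read lie under it.

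By position in the sense gene, 578 of the 645 mirrored introns (89.6%) lay between coding exons and 47 (7.29%) in the 5′ untranslated region, beside 88.4% and 6.69% of the 154128 annotated introns with sense reads. First introns of a transcript made up 26.7% of mirrored introns (interval 23.4% to 30.2%) and 23.8% of annotated ones. Of the 43 mirrored introns with at least 5 antisense reads, 21 were first introns (48.8%, 34.6% to 63.2%), among them those of Slitrk5, Lyrm4 and Carmil1. Several of the 43 come from the same chain, as opposite Crebbp, and are not separate cases. The interval ignores this, so no difference from annotated introns is drawn from it. Among chains with the class antisense in both libraries, the widest model covered 129068 bases opposite Grin2b, an NMDA receptor subunit, with 3 and 2 reads. Next in width were an unmirrored chain of 111753 bases opposite Ppfia2, a scaffold protein of the presynapse, with 3 and 1 reads, and a mirrored one of 86583 bases opposite Tmem200a, with 1 and 1. With any class counted, 2 wider chains were seen in both, 169790 bases opposite Tox, a nuclear factor, with 6 and 9 reads, and 167914 bases opposite Gm18580, with 1 and 1. The intron opposite Ppfia2 is not in GENCODE M21, but 4 and 8 sense reads had it. After Crebbp, the most introns among chains seen in both libraries were 4 opposite Tfg (1 and 2 reads, 3 introns mirrored), which acts in export from the endoplasmic reticulum, and 3 in each of 5 mirrored chains, of which that opposite Pip5k1a, a phosphoinositide kinase, had the most reads (3 and 6).

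The ends of the models differed as well. The 3′ end of the antisense model lay exactly on an annotated start of the sense gene for 113 of 473 mirrored chains (23.9%) and for 35 of 1049 unmirrored ones (3.34%). Those 113 chains held 54.2% of mirrored reads, with the Slitrk5 chain among them at 345 of the 1301 mirrored reads. The 5′ end lay exactly on an annotated 3′ end of the sense gene for 130 mirrored chains (27.5%) and 47 unmirrored ones (4.48%). The intervals for 3′ ends within 50 bases of the sense start were 20.3% to 27.9% and 2.73% to 5.04% and did not overlap. The order was the reverse for 5′ ends within 50 bases of the sense start, at 3.38% of mirrored (2.09% to 5.42%) and 11.4% of unmirrored chains (9.65% to 13.5%). The 3′ end lay exactly on the sense 3′ end in 1.27% and 3.72%. Ends were used as deposited. Many fell on an annotated end to the base, and whether they had been set to it was not tested. Over the length of a model, the median share of bases within sense exons was 30.2% for mirrored chains and 2.10% for unmirrored ones. The rest of a model lay over sense introns or beyond the gene. This difference is partly built in, since a mirrored model by definition borders sense exons at its introns, while 420 of 1049 unmirrored chains covered no sense exon.

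The last bases of the models are shown for the abundant mirrored chains because runs of A recurred there, and primers of T used for cDNA can pair with a run of A inside an RNA or its copy. The first 6 lines give the last 30 bases of the model, and the last 2 lines give the 20 bases that follow its end. Those 2 were chosen after their values were seen. In the same 20 bases the longest run of A was 2 opposite Ubl3 and Lyrm4, 1 opposite Bcl2l1 and 4 opposite Chtop. It was 15 opposite Gtf2a1 and 6 opposite Mbnl1. Capitals mark the longest run of at least 6 A. The positions are chr14:111675097-111675126 (− strand) for Slitrk5, chr16:4213968-4213997 (+) for Crebbp, chr3:60529549-60529578 (−) for Mbnl1, chr13:24280761-24280790 (+) for Carmil1, chr7:70360564-70360593 (+) for Nr2f2, chr13:36117497-36117526 (+) for Lyrm4, chr3:108906984-108907003 (+) for Prpf38b and chr1:37536236-37536255 (+) for Mgat4a.
Slitrk5: tggacgctctatAAAAAAAAAAAAAAAAAA
Crebbp: ggcggctgttgattcctcaattAAAAAAAA
Mbnl1: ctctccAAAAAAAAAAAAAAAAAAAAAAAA
Carmil1: gcccgcagtaccAAAAAAAAAAAAAAAAAA
Nr2f2: ccggtgtgtttgttttgtttgtttccctcg
Lyrm4: acagtcgcgggctcgaacaccagggctcaa
Prpf38b, following bases: AAAAAAAAAAAAAAAAcaaa
Mgat4a, following bases: AAAAAAAAAAAAAAAAAAAA

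The models opposite Slitrk5 and Carmil1 ended in 18 A, that opposite Mbnl1 in 24 and that opposite Crebbp in 8, while the ends opposite Nr2f2 and Lyrm4 had no such run. Each of these ends, as deposited, lay exactly on an annotated start of the sense gene, and whether the reads themselves ended there was not tested. The last 50 bases could be read for 190 mirrored chains, and 24 of them (12.6%, interval 8.64% to 18.1%) held at least 8 A in a row. The share was 7 of 21 (33.3%, 17.2% to 54.6%) for mirrored chains with at least 5 reads and 10 of 135 (7.41%, 4.07% to 13.1%) for unmirrored chains. As background, the first 50 bases of annotated transcripts, read on the opposite strand, held such a run in 0.608% of 132581. Models with such a run held 55.0% of the reads of the readable mirrored chains, and 27.2% without the Slitrk5 chain. Both mirrored and unmirrored models thus lay above that value, but it is not a matched background. It comes from sense starts, where 23.9% of mirrored and 3.34% of unmirrored chains had their 3′ end exactly. The part of A runs in the result was not tested.

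Unmirrored introns included short ones that mirrored introns lacked, which the definition nearly fixes. Mirrored introns are annotated introns of the sense gene, and only 9 of 154128 annotated introns with sense reads are under 60 bases. Mirrored introns ran from 77 to 147963 bases with a median of 1206, and unmirrored introns from 36 to 159413 with a median of 1155. Under 60 bases, which is short for introns of mammals, lay 61 unmirrored introns (3.93%), no mirrored intron, and 0.00584% of annotated introns with sense reads. Reads across these 61 introns numbered 48 and 45 in the libraries, and 5 of them were read in both. Introns of at least 10000 bases made up 14.9% of unmirrored and 8.53% of mirrored introns.

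**Figure D5:**
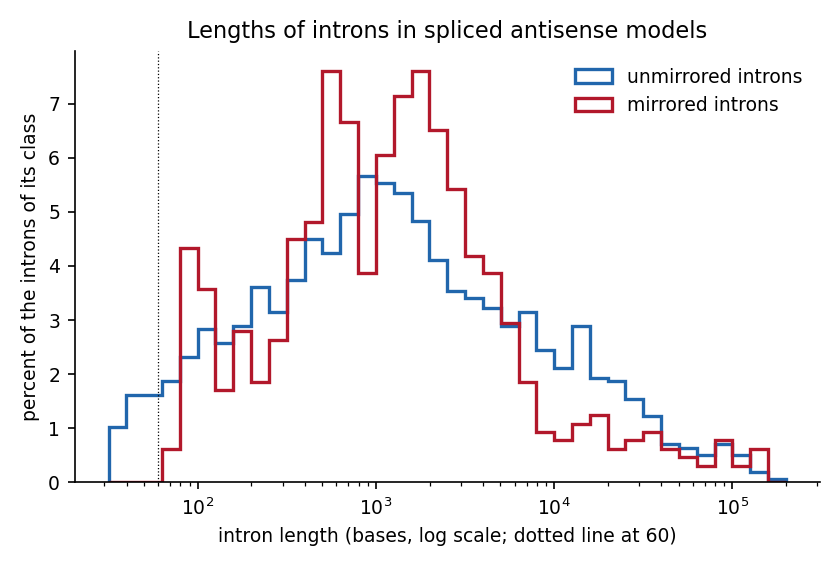
Length of the 645 mirrored and 1554 unmirrored introns (x axis, bases on a log scale) as a percent of the introns of each kind (y axis). The dotted line marks 60 bases, with 61 unmirrored introns and no mirrored one to its left, which the definition of mirrored introns nearly fixes. The unmirrored introns have the larger share beyond 10000 bases.

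Among unmirrored chains, D430019H16Rik faced the one with the most reads, 14 in replicate 1 and 7 in replicate 2 (13.2 ± 5.40 CPM, SD, n = 2; chr12:105475905-105490915, − strand), with an intron of 11565 bases. The chain opposite Rubcnl, a regulator of autophagy, had 8 and 5 reads (8.23 ± 2.13 CPM) over an intron of 18645 bases, and the sense gene had 1 and 0. The identical intron also appeared on the other strand, in a model with 2 and 1 reads that the table calls antisense to a new model there. Ppm1e, a protein phosphatase of the brain, faced a chain of 2 introns with 4 and 6 reads (6.47 ± 2.26 CPM). Its 5′ end lay at the annotated start of Ppm1e, a divergent arrangement, and 395 bases from the start of the RefSeq gene Gm33937 on its own strand. Opposite Oxr1, which protects against oxidative damage, a chain with 7 and 1 reads also began at the annotated start of the sense gene. All 4 of these chains were seen in both libraries.

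Other unmirrored chains with at least 5 reads had short introns. That opposite Lin7a, a scaffold protein of synapses, had 4 and 4 reads and an intron of 41 bases. Auts2, a nuclear protein of neurodevelopment, faced 4 and 3 reads with an intron of 62 bases, and Tnrc18 faced 4 and 1 reads with one of 53 bases. The chain opposite Slc1a3, named above for its change of class, also had an intron of 41 bases. Of the 14 unmirrored chains with at least 5 reads, 11 were seen in both libraries and these 4, chosen after their values were seen, had a single intron under 70 bases, of which that opposite Auts2 is above 60.

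Few member models began at a start already annotated on their strand. The 5′ end of 93 unmirrored chains (8.87%) lay within 1000 bases of the start of a RefSeq gene on the same strand, and that of 17 within 50 bases, while GENCODE M21 had a start within 1000 bases for 3. For the 473 mirrored chains the RefSeq count was 2 and the GENCODE count 12 (2.54%), of which 2 began exactly on it. The 93 chains fell to 87 RefSeq genes, of which 86 have provisional names of the Gm or Rik kind, and 3 of the chains were seen in both libraries. Beside Ppm1e, these faced Dbx2, a homeobox gene, with 1 and 2 reads at 236 bases from Gm31690, and Opcml, an adhesion molecule of neurons, with 1 and 1 reads at 78 bases from Gm39314. A chain of 9 introns opposite Gm29065, with 1 read in replicate 2, began 13 bases from Gm32622. RefSeq starts on chromosome 18 were not used here, and 41 of the 1574 chains lie there.

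Relative to the sense gene, 344 of 1567 chains (22.0%) had their 5′ end within 1000 bases of an annotated start of the sense gene, 1027 (65.5%) lay inside it, 153 (9.76%) overlapped its 3′ end from outside and 43 lay otherwise. The mirrored chains lay inside in 76.1% and the unmirrored in 60.2%, and overlap of the 3′ end made up 2.11% and 13.6%. The remaining 7 chains face a new model that is not in GENCODE M21, among them the second strand of the Rubcnl intron.

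The chains faced 1384 genes of GENCODE M21, of which 91.9% were protein-coding and 1221 had a single chain. Of the 1384, 127 had no sense read and 139 had fewer sense than spliced antisense reads. Their median of 35 sense reads over both libraries was above the median of 18 for all known genes with reads. Across these genes, spliced antisense and sense levels on log2(CPM + 1), averaged over the libraries, correlated with Pearson's r = 0.0748 and Spearman's rho = 0.0818 (n = 1384 genes, which share both libraries). Most of them had 1 antisense read, so this describes sparse counts and is no finding.

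Of all genes with at least 20 sense reads, 892 of 8875 (10.1%) faced a spliced antisense chain, and gene lists of the tissue were set beside that share without a test. Forebrain transcription factors had a chain in 6 of 27 (22.2%), namely Nr2f2, Bcl11b, Emx1, Sox4, Tcf4 and Zbtb20, with 18 and 23 reads in all. Nr2f2 held 11 and 20 of these, and no other had more than 2 reads in a chain. Synaptic genes had one in 10 of 38 (26.3%), with 5 and 12 reads, including the glutamate receptor subunits Grin2a and Grin2b, the scaffold genes Shank1 and Shank3, and Nsf, which recycles vesicle fusion proteins. Only Camk2b and Grin2b among them faced a mirrored chain. Astrocyte genes had one in 4 of 16 (Slc1a2, Slc1a3, Gja1 and Cst3), and proteasome and ubiquitin genes in 2 of 12 (Psmb1 and Psmd4).

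Myelin genes had a chain in 1 of 12, opposite Mbp, whose sense reads numbered 3077 and 1255. Cytoskeleton genes had 1 of 21 (Kif5a), though their median of 1068 sense reads was the highest of the lists. Imprinted genes had 0 of 16. Antisense RNAs already in GENCODE M21 carry the class of annotated transcripts and are not counted here. Outside the genes with at least 20 sense reads, Kcnq1 and Mog each faced 1 read in replicate 1.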

How the data were processed

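Long-read RNA sequencing of 2 hippocampus libraries was used. The deposited tables give raw read counts per transcript model, per the file headers, with 832263 and 753385 reads. Other descriptors deposited by the authors are exon numbers, lengths and exon positions on mm10 with GENCODE M21. The transcript caller is not given in the sources used here, though the attributes carry TALON's names. CPM is reads over mouse reads (ERCC spike-in reads left out) times 1000000. A count of 0 was taken to allow 3 reads, 3.65 and 4.03 CPM. Wilson 95% intervals and floors cover counting error only. Fisher's exact tests used scipy 1.17.1 and were tested on simulated data, and TMM sizes came from edgeR 4.0.16. p-values measure only departure from counting error between these libraries, and no spread between libraries is estimated.

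No genome was used here, so splice ends were read where the M21 transcripts or RefSeq windows (GRCm38.p6) hold them. Of 472246 bases read more than once, 0 differed.

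The members, lists and tests were chosen with earlier results of these data known. The rule named the 12 sense genes with the most antisense reads, the 6 mirrored chains with the most, called chains, those with most introns or widest span, and list members with at least 10 reads. Its part on chains whose introns all have own-strand ends found 0 readable chains in both libraries. The unmirrored chains, RefSeq neighbours and printed sequences were chosen after their values were seen.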

Additional observations from a re-analysis of the deposited data

Results flagged for a closer look

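Reads on the antisense strand of ERCC controls, synthetic RNAs made from 1 strand only, lay outside the main measurement. They numbered 107 of 10939 ERCC reads in replicate 1 (0.978%, Wilson 95% interval 0.810% to 1.18%) and 81 of 9523 in replicate 2 (0.851%, 0.685% to 1.06%), above the 3 reads that a count of 0 allows. All fell in 4 controls, ERCC-00009 with 72 and 52 reads, ERCC-00116 with 32 and 23, ERCC-00099 with 1 and 5, and ERCC-00059 with 2 and 1, and each of these 4 had 0 sense reads. So each of these 4 controls was read on 1 strand only. The 0.978% and 0.851% are therefore the part of these 4 controls in all ERCC reads, and not a rate of antisense reads within a control.

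Spliced models of antisense loci that carry another class were also outside the rule, with 554 reads in replicate 1 and 469 in replicate 2. They made 555 chains, of which 48 were seen in both libraries.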

How the results depend on the processing

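The 1574 chains became 248 with at least 2 reads and 44 with at least 5, and their 2656 reads became 1330 and 852, since most chains have 1 read. Leaving out a replicate gave 807 to 880 chains, 1304 to 1352 reads, a mirrored share of 31.9% in either case (31.86% and 31.88%), splice-site bases on the own strand in 45.7% to 63.3% and an r of 0.0301 to 0.0666. The mean of 1700 CPM stayed within its SD of 75.6 with all reads as library size and with TMM sizes. The 7.18% of chains seen in both libraries became 13.0% with 1 intron shared exactly, 13.3% for mirrored and 4.45% for unmirrored chains alone, 45.6% from 2 reads, 81.8% from 5 reads and 11.1% with any class. The mirrored share of 29.3% became 49.1% weighted by reads, 43.9% weighted by reads without the Slitrk5 chain, 33.5% with boundaries within 10 bases and 61.8% in chains seen in both libraries. Own-strand splice-site bases, 58.5% of the 135 introns read, became 38.5% weighted by reads, 38.9% of 18 introns in chains of at least 2 reads, 0 of 5 from 5 reads and 0 of 8 in chains seen in both libraries. The share with 5′ ends near the sense start, 22.0% at 1000 bases, was 15.1% at 500 and 31.1% at 2000, and that inside was 65.5%, 70.5% and 58.6%. The r of 0.0748 turned to -0.0308 in 16 genes with at least 10 antisense reads (rho -0.127), where the cause was not tested. The 0 Fisher calls stayed 0 at 10 reads, with TMM sizes and summed per sense gene. Over genes and antisense loci with all their models, single-exon ones included, 47 of 1299 antisense loci were called (3.62%), beside 193 of all 10174 units (1.90%), which is another unit and another set of models.

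No paired analysis was possible because there is 1 group of 2 libraries. Depth limits the other results, as 84.2% of chains rest on 1 read, and end bases were read for 135 of 2199 introns.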

Other observations

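Spliced models of other classes in antisense loci enter the any-class counts of a member and its Fisher test only where they share its chain. They enter the comparison over antisense loci with all models, and they were left out of the antisense reads of the mirrored introns. They were led by a model of the genomic class with 1 intron opposite Mir124a-1hg, the host gene of a neuronal microRNA, with 57 reads in replicate 1 and 70 in replicate 2. An incomplete splice match opposite Sh3glb2, an endophilin, had 20 and 12 reads. Opposite Lncpint, a long non-coding RNA gene, a genomic model had 9 and 6 reads, and opposite Crebbp an incomplete match with 2 introns had 4 and 10. By class, 48 of 85 introns of the incomplete matches and 70 of 110 of the new combinations were mirrored, against 8 of 375 of the genomic models and 11 of 203 of those with a new splice site.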
